A study of Mus musculus with 10 samples.

Results

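Axon guidance molecules were compared between the prefrontal cortex of mice with 1 mutant copy of Arid1b (HT, Arid1b+/-) and that of wild-type (WT) mice. The genes were taken by name. They are the protein-coding genes of the semaphorins of classes 3 to 7, the plexins A to D, both neuropilins, the A and B ephrins and Eph receptors, the 3 Slits and the 4 Robos. This gave 60 of the 18216 genes in the table, namely 20 semaphorins, 9 plexins, 2 neuropilins, 8 ephrins, 14 Eph receptors, 3 Slits and 4 Robos, and no gene of these names in GENCODE release M21 was missing from it. Epha1, at a mean of 7.19 normalised counts, was under the minimum mean of 10 set for testing, so 59 were tested.

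RNA-Seq libraries came from the prefrontal cortex of 10 males (strain C57BL/6N, postnatal day 10), 1 library per mouse, with 5 HT and 5 WT animals. In the HT line, 1 germline copy of Arid1b carries a mutation that truncates the protein where exon 5 begins. Arid1b encodes a DNA-binding subunit of the BAF chromatin remodelling complex. WT mice were littermates with both copies intact, and neither group was treated. The labels do not say which litter each pup came from, so the p-values measure the spread between these mice.

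In this signalling system, a ligand on or released from one cell meets a receptor on the tip of a growing axon and turns it toward or away from the source. Semaphorins signal through plexins, most of the secreted class 3 forms needing a neuropilin as the ligand-binding partner. Ephrins are held in the membrane and signal through Eph receptor tyrosine kinases, often in both directions, and secreted Slits signal through Robo receptors. After axons have arrived, many of the same proteins act in dendrite growth, synapse formation and blood vessels of the cortex.

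Arid1b itself averaged 1894 ± 86.6 normalised counts in HT and 2842 ± 142 in WT mice (mean ± SD, 5 mice each, as in all group means given here). Its log2 fold change was -0.59 and the groups did not overlap. A normalised count is here the estimated read number of a gene divided by a factor for the size of the library, and the 10 libraries summed to between 31106300 and 32106800. Slc17a7, the vesicular glutamate transporter of cortical projection neurons, stood at 37828 or more normalised counts in every library, and none of the markers of 8 cell types or regions was at 0 in any library. Striatal neuron markers summed to 7848 in HT5, 6862 in WT3 and 7206 in WT5, and to between 15569 and 24184 in the other libraries. Olfactory bulb markers summed to between 536 and 3157. HT2, HT5 and WT4 stood apart from the other 7 libraries on the first principal component, at 23.4, 20.8 and 19.8 against at most -0.63. All 12 astrocyte markers were higher in the HT mean and 8 of them had an unadjusted p under 0.05 (limma), with sums from 170712 to 218044 in HT and from 156232 to 183745 in WT mice. Higher or lower in the HT mean refers here and throughout to the mean of log2 values, the sign of the log2 fold change. These were bulk samples, in which fewer cells of a type and less RNA per cell cannot be told apart.

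None of the 59 tested axon guidance genes passed an adjusted p of 0.05 between HT and WT mice, the smallest adjusted p being 0.42 (limma with Benjamini-Hochberg adjustment over 16781 genes). Over all tested genes 0.0179% passed, which were 3 genes. At an unadjusted p under 0.05, 13 of the 59 (22.0%) were counted, beside 9.23% of all tested genes. They split into 7 that were higher in HT mice (11.9%, beside 4.71% of all genes) and 6 that were lower (10.2%, beside 4.52%). Only Plxnc1 of the 59 (1.69%) had HT and WT values that did not overlap, beside 1.62% of all tested genes. Log2 fold changes ran from -0.23 to 0.37, with a median of -0.02 beside -0.0035 for all tested genes, and 33 of the 59 lay within 0.1 of 0. Without HT2, HT5 and WT4 the count at unadjusted p was 8 (13.6%, beside 7.53% of all genes), and with the astrocyte marker score as a covariate it was 4 (6.78%, beside 4.76%), of which Ephb1, Robo3 and Sema6c were among the 13. The count was 7 without a variance trend (11.9%, beside 8.53%), 7 without WT5 (11.9%, beside 7.41%) and 8 without WT3 (13.6%, beside 6.46%). With the striatal marker score as a covariate it was 12 (20.3%, beside 9.93%), of which 9 were among the 13. Epha3, Plxnb1, Sema4f and Slit2 were then no longer counted. All 12 astrocyte markers were higher in the HT mean. A fit with their score therefore cannot tell a difference by genotype from one in astrocyte markers.

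**Figure D1:**
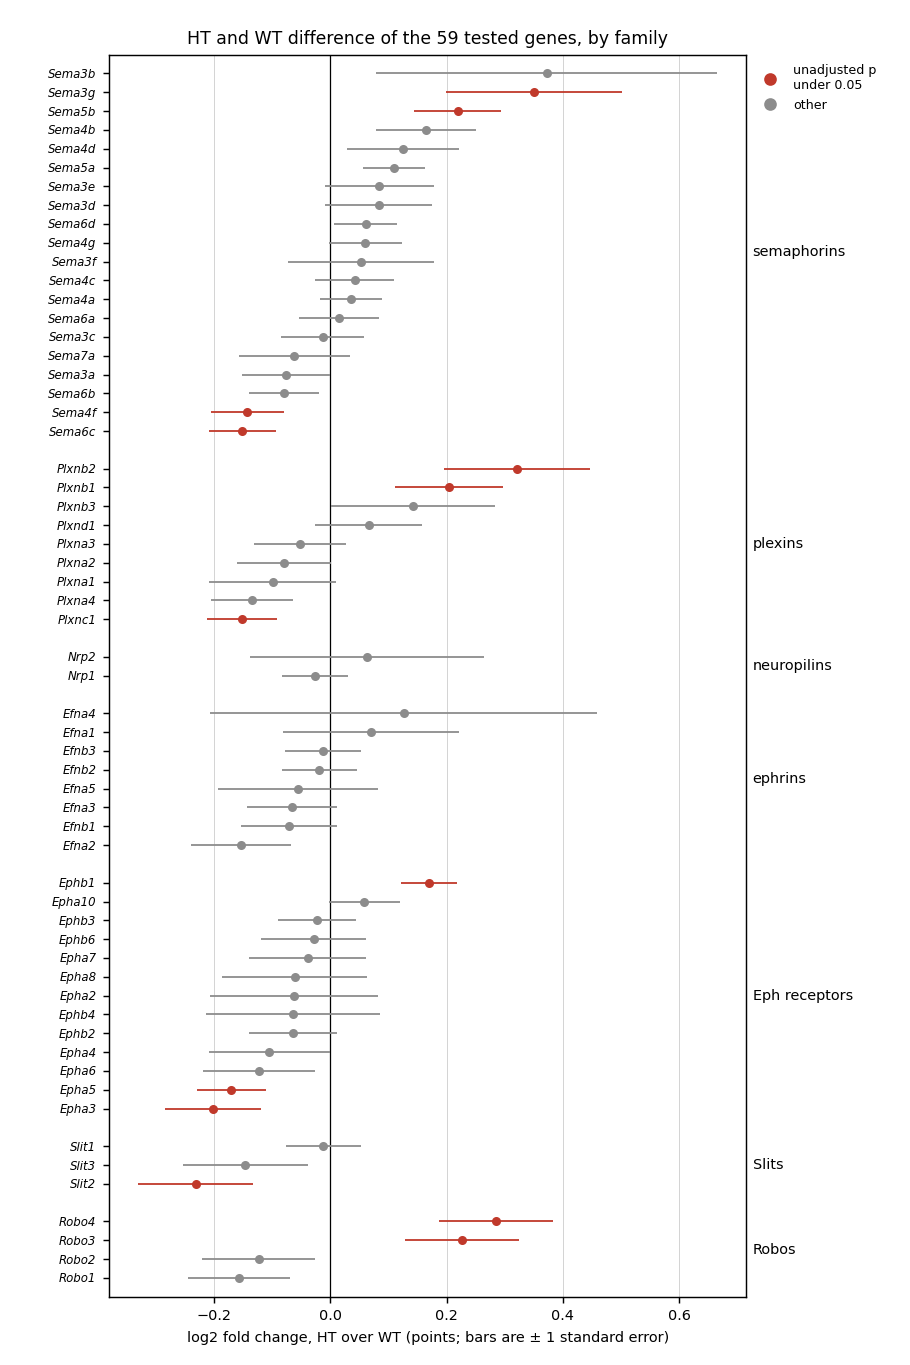
Log2 fold change of HT over WT on the x axis for each of the 59 tested genes, grouped by family, with bars of 1 standard error from limma; red marks an unadjusted p under 0.05. The 13 red genes lie on both sides of 0, and all 59 lie between -0.23 and 0.37.

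By family, the signs differed while the sizes stayed small, and the counts are read beside the 4.71% of all tested genes that were higher and 4.52% that were lower at unadjusted p under 0.05. Of 20 semaphorins 14 were higher in the HT mean (median log2 fold change 0.06), with 2 higher and 2 lower at unadjusted p under 0.05. Of 9 plexins 4 were higher (median -0.05), with 2 higher and 1 lower at that p. Of 8 ephrins 2 were higher (median -0.04), none at that p. Of 13 tested Eph receptors 11 were lower (median -0.06), with 1 higher and 2 lower at that p. The 3 Slits were all lower in the HT mean (median -0.15), with 1 at that p, and the 4 Robos were split evenly (median 0.05), with 2 higher at that p. The 2 neuropilins had log2 fold changes of 0.06 and -0.03. With the astrocyte score as a covariate, the median turned to 0.04 for Eph receptors and to 0.04 for Slits. With 1 mouse left out, it ran from -0.08 to -0.01 for Eph receptors and from -0.21 to -0.07 for Slits, and it turned sign for plexins (-0.080 to 0.0054), ephrins (-0.053 to 0.0054) and neuropilins (-0.038 to 0.094). Without HT2, HT5 and WT4 the plexin median was 0.037.

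Semaphorins were, per length, the family with the most abundant member. Sema7a, the membrane-anchored semaphorin that acts through integrin and plexin C1 receptors, stood at 1703 ± 198 normalised counts per kb of exon (SD over 10 mice), the highest level of the 60 genes. Sema6b, a transmembrane ligand of A-type plexins, followed at 901 ± 63.7, and the other 18 semaphorins lay between 12.4 for Sema3b and 319 for Sema4d. Sema7a ran from 4303 to 6211 normalised counts in HT and from 5160 to 6481 in WT mice, with a log2 fold change of -0.06.

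**Figure D2:**
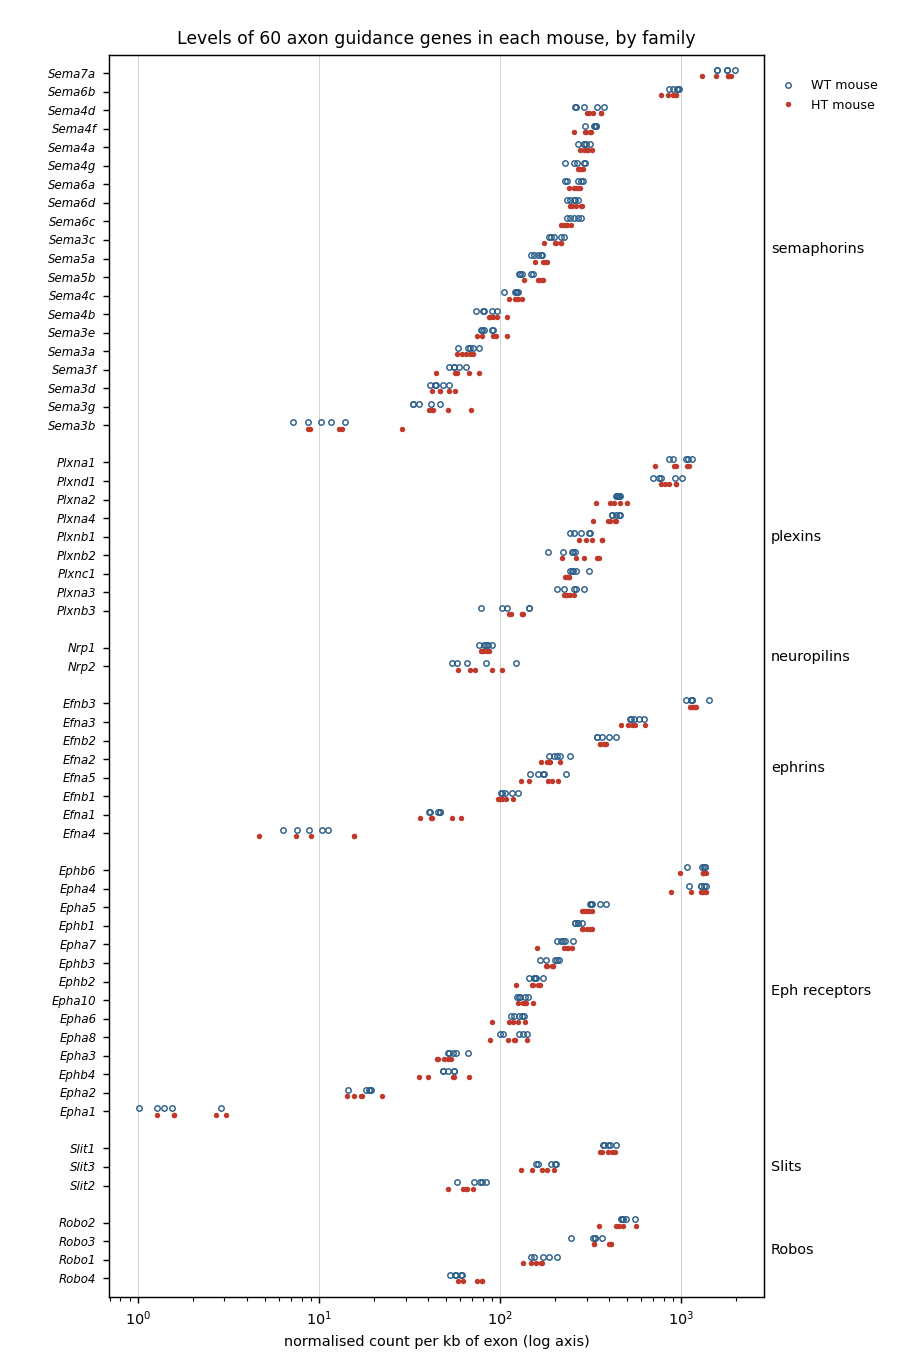
Normalised count per kb of exon (x axis, logarithmic) in each of the 10 mice for all 60 genes, ordered by level within family; open circles are WT mice and filled circles HT mice. Mean levels range from 1.83 for Epha1 to 1703 for Sema7a, and the spread between genes is far wider than that between mice.

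Of the secreted class 3 semaphorins, 5 of 7 were higher in the HT mean, and Sema3g was the one at unadjusted p under 0.05. Sema3g, a neuropilin ligand known from arteries, had 193, 311, 183, 190 and 234 normalised counts in HT1 to HT5 and 188, 212, 150, 161 and 151 in WT1 to WT5. HT2 was the highest mouse and 3 HT mice lay within the WT range. The means were 222 ± 53.6 in HT and 172 ± 26.8 in WT mice (log2 fold change 0.35, SE 0.15, adjusted p = 0.51 in limma). It was 0.22 without HT2, 0.12 without HT2, HT5 and WT4, and 0.01 with the astrocyte marker score as a covariate. Sema3b had the largest log2 fold change of the 59, 0.37 (SE 0.29), from a single mouse, HT5, at 137 beside 41.7 to 63.7 in the other HT mice and 34.1 to 66.2 in WT mice. Its adjusted p in limma was 0.68.

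Among transmembrane semaphorins, Sema5b was higher and Sema4f and Sema6c were lower in HT mice. Sema5b, which repels axons of developing sensory and retinal neurons, had 1151, 1199, 958, 1137 and 1213 normalised counts in HT1 to HT5 and 934, 1077, 895, 1042 and 906 in WT1 to WT5. All HT mice but HT3 lay above all WT mice. The difference was 0.22 on the log2 scale (SE 0.07, adjusted p = 0.48 in limma). Sema6c, a transmembrane relative of Sema6b, had 1291, 1339, 1380, 1467 and 1366 in HT1 to HT5 and 1447, 1594, 1517, 1385 and 1666 in WT1 to WT5. HT4 alone of the HT mice reached into the WT range. The log2 fold change was -0.15 (SE 0.06, adjusted p = 0.50 in limma). Sema4f, a postsynaptic density-associated semaphorin, had 1645, 1353, 1684, 1555 and 1579 in HT1 to HT5 and 1756, 1785, 1781, 1560 and 1732 in WT1 to WT5. WT4 was the only WT mouse below the HT maximum, so 3 HT mice lay within the WT range (log2 fold change -0.14, SE 0.06, adjusted p = 0.52 in limma), and without HT2 the value was -0.09. With the astrocyte score as a covariate, the log2 fold change of Sema5b was 0.10 and that of Sema4f was -0.06.

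Plexins are described here by type, with no test of a difference between types. All 4 A-type plexins, the signalling partners of neuropilins and class 6 semaphorins, were lower in the HT mean, with log2 fold changes from -0.13 to -0.05 and none at unadjusted p under 0.05, though Plxna1 turned to 0.14 with the astrocyte score as a covariate. Plxna1 was the most abundant plexin at 976 ± 134 normalised counts per kb (SD over 10 mice). It ran from 6476 in HT2 to 9912 in HT3 and from 7762 to 10301 in WT mice. All 3 B-type plexins, receptors of class 4 semaphorins, were higher in the HT mean, 2 of them at unadjusted p under 0.05.

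Plxnb2, a B-type plexin known from neural progenitors, had 2244, 2642, 2025, 1687 and 2706 normalised counts in HT1 to HT5 and 1935, 1928, 1714, 1998 and 1409 in WT1 to WT5. HT4 was the one HT mouse inside the WT range. The means were 2261 ± 427 in HT and 1797 ± 242 in WT mice (log2 fold change 0.32, SE 0.13, adjusted p = 0.50 in limma). Plxnb1, a receptor of Sema4d, had 2595, 3474, 2838, 3080 and 3510 in HT1 to HT5 and 2686, 2971, 2324, 3008 and 2439 in WT1 to WT5. HT2 and HT5 were the highest mice for both genes. The Plxnb1 log2 fold change was 0.20 (SE 0.09, adjusted p = 0.53 in limma). It overlaps the antisense gene Gm7628, also in the table, and how strand was set in the counting is not given in the sources used here. HT2 and HT5 were also the mice with the highest astrocyte sums, at 218044 and 206866, and with the astrocyte score as a covariate the log2 fold change of Plxnb2 was 0.14 and that of Plxnb1 was -0.0036. Without HT2, HT5 and WT4 they were 0.19 and 0.13.

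Plxnc1, the receptor of Sema7a, was lower in HT mice without overlap between groups. It had 1948, 2000, 1912, 1987 and 1976 normalised counts in HT1 to HT5 and 2027, 2093, 2581, 2172 and 2085 in WT1 to WT5. The HT values were tightly grouped (SD 35.2) and WT3 stood above the other WT mice (SD 224), while the gap between HT2 and WT1 was small. The log2 fold change was -0.15 (SE 0.06, adjusted p = 0.51 in limma), and without WT3 it was -0.09. With the astrocyte score as a covariate it was -0.12 and no longer at an unadjusted p under 0.05. The groups overlapped after upper-quartile rescaling of the libraries.

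**Figure D3:**
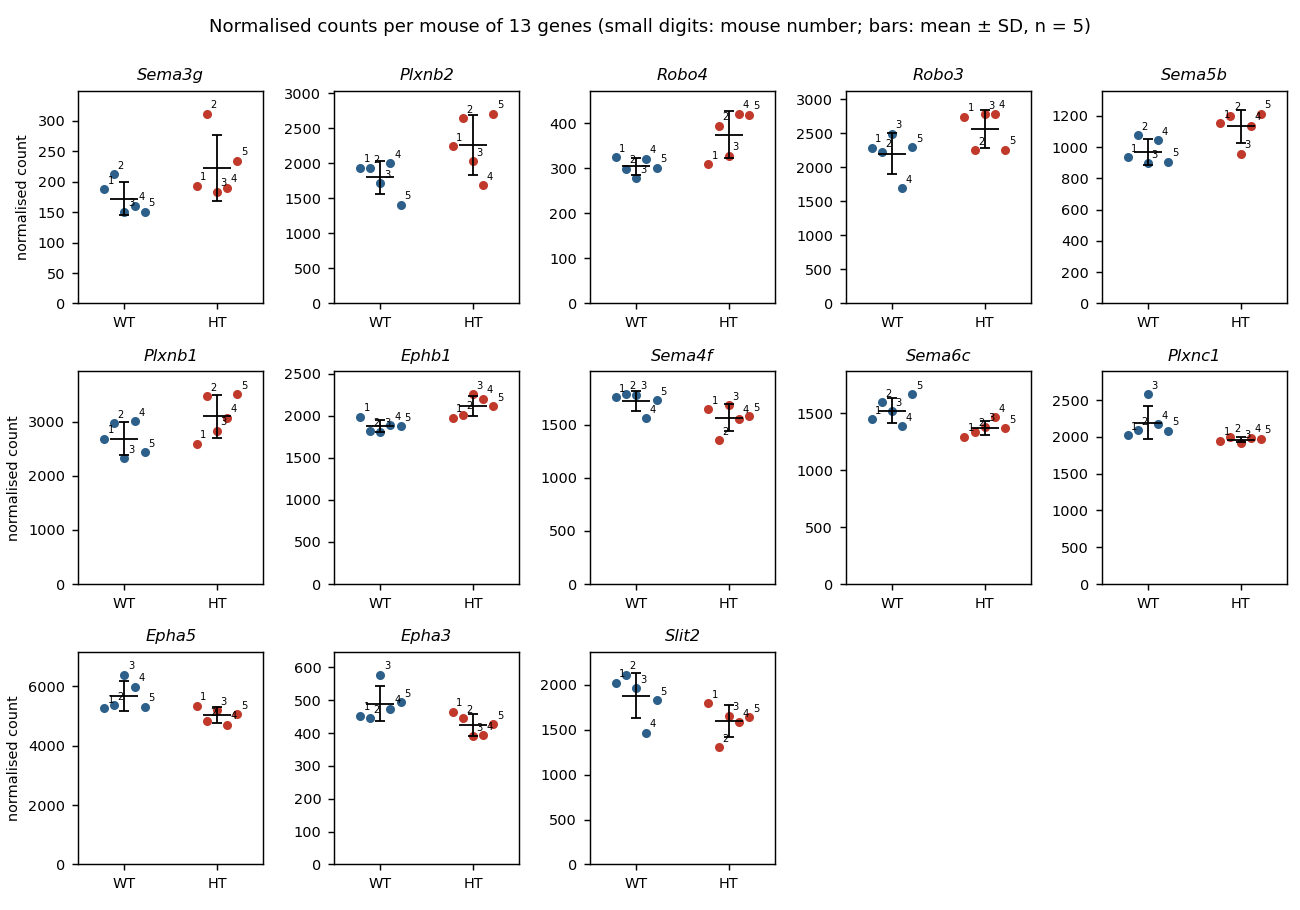
Normalised counts (y axis, from 0) of the 13 genes with an unadjusted p under 0.05, 1 point per mouse with its number, WT in blue and HT in red; bars are the mean and SD of 5 mice. Of the 13 genes, Plxnc1 is the one whose WT and HT points do not overlap.

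Neuropilins were at similar levels per length, Nrp1 at 82.7 ± 4.10 and Nrp2 at 77.2 ± 21.8 normalised counts per kb (SD over 10 mice). Nrp1, which binds Sema3a, ran from 763 to 844 normalised counts in HT and from 749 to 882 in WT mice. Nrp2, which binds Sema3f, had 857, 1063, 803, 689 and 1204 in HT1 to HT5 and 643, 771, 992, 1439 and 687 in WT1 to WT5. WT4, HT5 and HT2 were its 3 highest mice, the same 3 that stood apart on the first principal component. Olfactory bulb markers summed to 3146, 1411 and 3157 in these mice and to 1868 in WT3, which had 992 for Nrp2, and their part in the Nrp2 values was not tested.

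Ephrins gave no gene at unadjusted p under 0.05. Efnb3, the midline barrier to corticospinal axons, was the most abundant at 1172 ± 94.4 normalised counts per kb (SD over 10 mice). WT4 held its highest value, 4515, beside 3393 to 3639 in the other WT mice and 3561 to 3818 in HT mice. Of the 5 A ephrins 2 were higher in the HT mean and 3 lower, and all 3 B ephrins were lower, with log2 fold changes from -0.07 to -0.01. Efna2, a ligand of EphA receptors that maps retinal axons, had the lowest log2 fold change of the family, -0.15 (SE 0.09, adjusted p = 0.59 in limma).

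Eph receptors held the smallest p of all members. Ephb1, a receptor of B ephrins that guides retinal axons at the optic chiasm, had 1979, 2011, 2255, 2200 and 2112 normalised counts in HT1 to HT5 and 1986, 1816, 1808, 1890 and 1877 in WT1 to WT5. WT1 was the only WT mouse to reach any HT mouse, and it exceeded HT1 alone. The means were 2111 ± 118 in HT and 1876 ± 71.7 in WT mice (log2 fold change 0.17, SE 0.05, adjusted p = 0.42 in limma). Its unadjusted p stayed under 0.05 in all 22 alternative settings, where the log2 fold change with 1 mouse left out ran from 0.15 to 0.19. The other 12 of the 13 genes kept that p in fewer settings, from 11 of 22 for Plxnb1, 12 for Sema4f and 13 for Sema3g to 20 for Epha5, Robo4 and Sema5b. The gene spans chr9:101922128-102354693 on the minus strand (GRCm38).

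EphA receptors, which bind mostly A ephrins and set topographic maps, were lower in the HT mean in 7 of 8 tested cases. Epha5, which is expressed in the cortex and its afferents, had 5341, 4823, 5199, 4701 and 5055 normalised counts in HT1 to HT5 and 5265, 5367, 6387, 5980 and 5312 in WT1 to WT5. HT1 alone lay inside the WT range. Its log2 fold change was -0.17 (SE 0.06, adjusted p = 0.48 in limma). Epha3, a close relative of Epha5, had 465, 445, 391, 394 and 427 in HT1 to HT5 and 453, 446, 577, 475 and 495 in WT1 to WT5. HT2 to HT5 lay below all WT mice, and HT1 lay above 2 of them (log2 fold change -0.20, SE 0.08, adjusted p = 0.51 in limma). WT3 was the highest mouse for both genes, and with the astrocyte score as a covariate Epha5 was at -0.08 and Epha3 at -0.15, both no longer at an unadjusted p under 0.05. Per length the family was led by Ephb6, a kinase-inactive receptor, at 1270 ± 133 normalised counts per kb, with Epha4, a receptor for both ephrin classes, at 1234 ± 153. The order of these 2 did not exceed their spread over the 10 mice. Summed over the family per kb, HT2 was lowest at 3379, beside 3840 to 4494 in the other 9 mice.

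Slits were lower in the HT mean in 3 of 3 genes. Slit2, a repellent for cortical and midline axons, had 1796, 1307, 1658, 1581 and 1643 normalised counts in HT1 to HT5 and 2022, 2113, 1963, 1468 and 1832 in WT1 to WT5. HT2 was the lowest mouse, and 4 HT mice lay within the WT range, which WT4 set at its lower end. The means were 1597 ± 180 in HT and 1880 ± 252 in WT mice (log2 fold change -0.23, SE 0.10, adjusted p = 0.51 in limma), and with the astrocyte score as a covariate the value was -0.15 and no longer at an unadjusted p under 0.05. Slit1, the most abundant Slit at 393 ± 28.7 normalised counts per kb, had a log2 fold change of -0.01, which turned to 0.044 with the astrocyte score, 0.0090 with the striatal score and 0.0024 under quantile normalisation. Slit3 had one of -0.15 (SE 0.11, adjusted p = 0.66 in limma).

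Robos split by gene. Robo1 and Robo2, the Slit receptors of most cortical axons, had log2 fold changes of -0.16 and -0.12, neither at unadjusted p under 0.05. Robo2 turned to 0.11 with the astrocyte score as a covariate and to 0.013 without HT2, HT5 and WT4. It was the most abundant of the family at 474 ± 59.3 normalised counts per kb. Robo4, the endothelial Robo that stabilises vessels, had 309, 394, 328, 421 and 418 normalised counts in HT1 to HT5 and 324, 299, 278, 321 and 301 in WT1 to WT5. All HT mice but HT1 lay above all WT mice. The means were 374 ± 52.2 in HT and 305 ± 18.7 in WT mice (log2 fold change 0.29, SE 0.10, adjusted p = 0.48 in limma). Robo3, the divergent Robo of commissural axons, had 2742, 2251, 2779, 2784 and 2257 in HT1 to HT5 and 2287, 2223, 2491, 1691 and 2293 in WT1 to WT5. HT2 and HT5 lay within the WT range and the other 3 HT mice above it (log2 fold change 0.23, SE 0.10, adjusted p = 0.51 in limma). Without WT4, its lowest mouse, the Robo3 value was 0.14. With the astrocyte score as a covariate it was 0.36 for Robo3 and 0.11 for Robo4. The genes are neighbours on chromosome 9, Robo4 at 37401897 to 37415115 on the plus strand and Robo3 at 37415669 to 37433246 on the minus strand (GRCm38), their ends facing each other over a gap of 553 bases.

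Endothelial markers and Robo4 were highest in the same 3 mice. The 10 markers summed to 12573 in HT2, 10721 in HT4 and 10155 in HT5, beside 9140 in HT1, 9054 in HT3 and 9267 to 10079 in WT mice. Of the 10 markers 7 were higher in the HT mean and none had an unadjusted p under 0.05, and their part in the Robo4 difference was not tested. Of 5 axon guidance genes grouped as vascular from their known expression (Robo4, Ephb4, Sema3g, Plxnd1 and Efna1), 4 were higher in the HT mean, with Robo4 and Sema3g at unadjusted p under 0.05, beside 9.23% of all tested genes. Ephb4, the venous Eph receptor, had a log2 fold change of -0.06 and ran from 166 in HT1 to 312 in HT2. Plxnd1, a Sema3e receptor of vessels and neurons, had 0.07 (0.0083 to 0.14 with 1 mouse left out) and Efna1 had 0.07. Efna1 turned to -0.16 with the astrocyte score as a covariate, to -0.17 without HT2, HT5 and WT4 and to -0.0035 with sample weights, and Ephb4 ran from -0.17 to 0.054 with 1 mouse left out. Robo4 and Sema3g were no longer at an unadjusted p under 0.05 with the astrocyte score. Of 4 genes grouped as oligodendrocyte-lineage (Plxnb3, Sema4d, Sema5a and Sema6a), 4 were higher in the HT mean and none at unadjusted p under 0.05, with log2 fold changes of 0.14, 0.13, 0.11 and 0.01. With the astrocyte score as a covariate, Plxnb3 and Sema6a turned to -0.025 each. With 1 mouse left out, Plxnb3 ran from 0.012 to 0.23 and Sema4d from 0.070 to 0.20. Sema5a ran from 0.082 to 0.14 and Sema6a from -0.031 to 0.053. The 12 oligodendrocyte-lineage markers were all higher in the HT mean, 1 of them at unadjusted p under 0.05, with sums from 70049 to 93906 in HT and from 41504 to 96861 in WT mice.

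**Figure D4:**
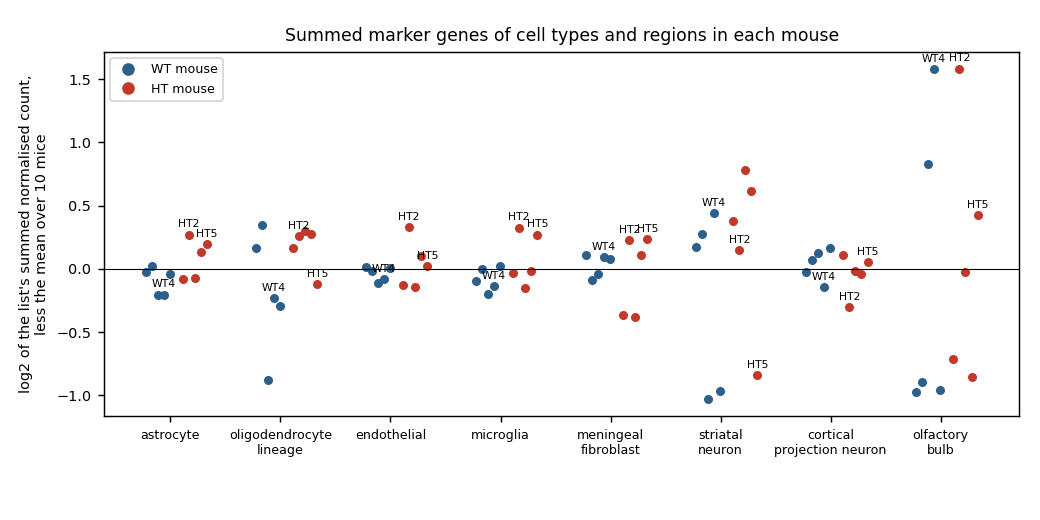
Summed normalised counts of 8 lists of marker genes in each mouse, as the log2 difference from the mean over 10 mice (y axis), WT in blue and HT in red, with the names of HT2, HT5 and WT4 written beside their points. HT2 and HT5 are the highest for astrocyte and microglia markers, and striatal and olfactory bulb markers spread widest in both groups.

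Across mice, HT2 held the lowest value more often than any other. It was lowest for 33.9% of the 59 tested genes, beside 21.8% of all tested genes, and WT3 was lowest for 18.6%, beside 11.7%. Over the 60 genes, counts per kb summed to 16060 in HT2 and to between 17668 and 19038 in the other 9 mice. HT2 was lowest for Plxna1, Plxna2, Plxna4, Epha4, Epha6, Epha7, Ephb2, Slit2, Slit3, Robo1 and Robo2 while it was among the highest for Sema3g, Plxnb2 and Epha2. Cortical projection neuron markers were also lowest in HT2, at 54576 beside 60958 to 75296 in the other mice, and mitochondrial genes took 8.43% of the counts in HT2 beside 5.15% to 6.76% in the others. The part of either in these values was not tested.

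**Figure D5:**
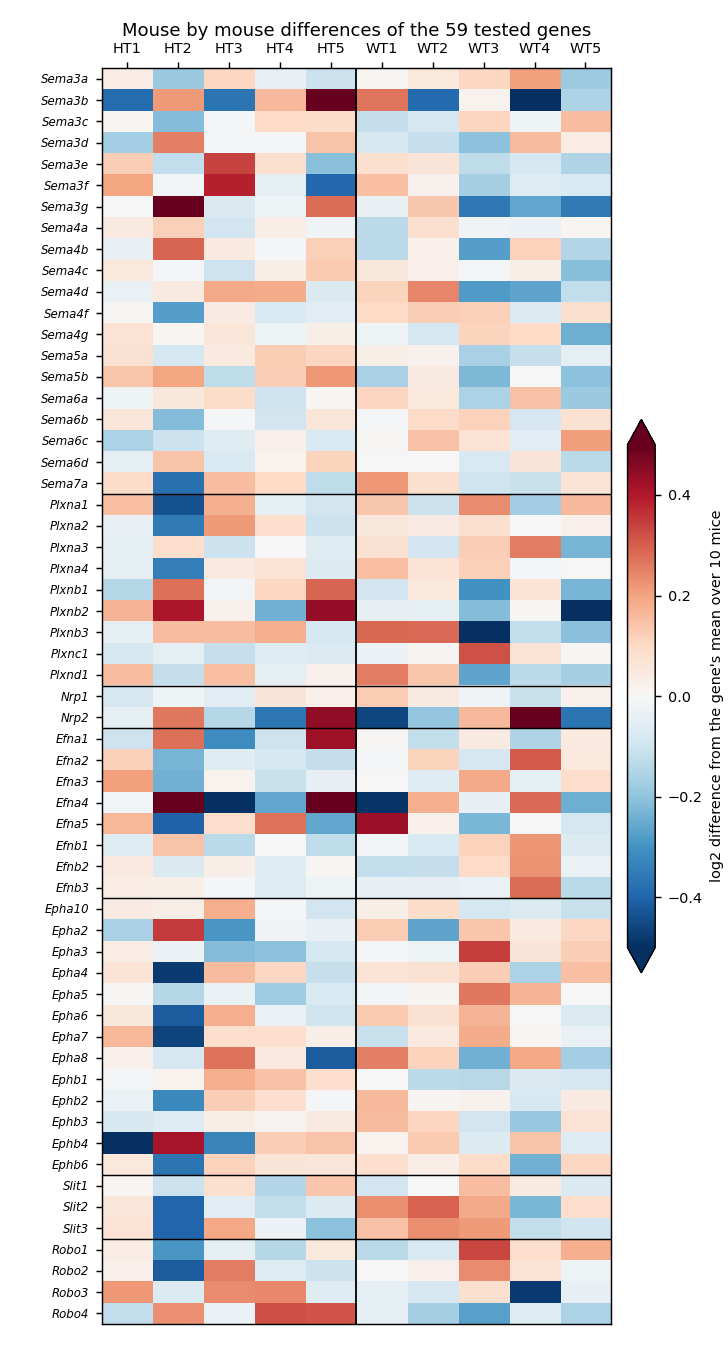
Each of the 59 tested genes (rows, by family) in each mouse (columns) as the log2 difference from its mean over 10 mice; the colour scale ends at -0.5 and 0.5 and values beyond it take the end colour. The HT2 column is blue for the 3 Slits and for 3 of the 4 A-type plexins, and no family is of 1 colour in all HT mice.

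The genes had a median span of 39.9 kb, beside 22.3 kb for all tested genes. Of the 59 tested, 27 span more than 100 kb and 32 do not, beside 2403 and 14368 of all tested genes with a known span, and their median log2 fold change was -0.05 beside -0.01 for all genes of that span, while the shorter members had a median of 0.01. In RefSeq windows of 250 bases before the start (GRCm38.p6), found for 53 of the 60 genes and 69 starts, the median GC content was 64% beside 52.4% over 32851 windows of 27025 genes. The ratio of observed to expected CG dinucleotides was over 0.6 in 49.3% of these windows, beside 34.0% of all. The letters TATAAA, searched on both strands, were in 2.90% of them, in a window of Slit2 and 1 of Efnb2, beside 12.4% of all. The 32851 background windows were not limited to protein-coding genes or to genes measured here, while all members are both. No window was in the reference table for Slit1, Sema3b, Sema3f, Sema6a, Plxna1, Plxna4 and Efnb3.

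The windows of 3 genes are shown to let a reader see this range, Ephb1 for the smallest p, Slit2 for the lowest log2 fold change and Robo4 for its endothelial expression, all chosen after their values were seen. Each is written 5′ to 3′ on the strand of its gene with CG dinucleotides in capitals, at chr9:102354694-102354943 (minus strand) for Ephb1, chr5:47982905-47983154 (plus strand) for Slit2 and chr9:37401722-37401971 (plus strand) for Robo4.
Ephb1: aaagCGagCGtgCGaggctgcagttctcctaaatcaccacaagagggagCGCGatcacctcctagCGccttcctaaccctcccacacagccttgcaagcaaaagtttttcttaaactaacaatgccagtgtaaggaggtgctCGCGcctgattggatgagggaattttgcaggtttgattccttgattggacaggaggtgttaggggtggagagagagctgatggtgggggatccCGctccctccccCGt
Slit2: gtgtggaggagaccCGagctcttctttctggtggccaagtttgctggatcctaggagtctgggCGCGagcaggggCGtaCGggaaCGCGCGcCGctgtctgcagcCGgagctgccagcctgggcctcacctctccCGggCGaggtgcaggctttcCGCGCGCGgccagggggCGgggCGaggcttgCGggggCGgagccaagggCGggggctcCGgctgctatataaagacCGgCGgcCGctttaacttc
Robo4: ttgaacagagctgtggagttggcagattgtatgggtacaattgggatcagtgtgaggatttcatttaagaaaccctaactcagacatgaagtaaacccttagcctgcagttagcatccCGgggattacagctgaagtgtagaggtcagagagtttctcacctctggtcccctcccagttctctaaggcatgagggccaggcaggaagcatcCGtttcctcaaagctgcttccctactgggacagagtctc
The Slit2 window held 25 CG dinucleotides (ratio 0.848), that of Ephb1 held 10 (0.551) and that of Robo4 held 2 (0.131). The windows of Robo4 and Slit2 reach past the gene starts of GENCODE, at 37401897 and 47983138. Of the 13 genes at unadjusted p under 0.05, 53.3% of 15 windows had a ratio over 0.6, beside 48.1% of the 54 windows of the other members.

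Other genes of guidance signalling were read from the same fit. A list of netrin and RGM ligands and receptors also held the Flrt genes, Draxin and Dscam. Of its 18 tested genes, none was higher and 1 was lower at unadjusted p under 0.05. That gene was Flrt2, a transmembrane ligand of Unc5 receptors, at -0.20 on the log2 scale (SE 0.09, adjusted p = 0.51 in limma). Of 38 tested cytoplasmic effectors, 1 was higher and 2 were lower at that p. Both lists are read beside the 9.23% of all tested genes at that p. Mical1, an actin-oxidising enzyme downstream of plexins, had a log2 fold change of 0.26, and Dpysl3, a collapsin response mediator protein, had -0.23. The medians of both lists were -0.01 and -0.03, and none passed an adjusted p of 0.05.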

How the data were processed

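RNA-Seq libraries of poly-A RNA, made per the labels with a stranded kit, came from prefrontal cortex of 10 mice, 1 library each. The authors estimated abundance with Salmon 1.1.0 on GRCm38, imported it per gene and divided it by DESeq2 1.30.1 size factors; the deposited values are this normalised count signal. They are not whole numbers and depth cannot be recovered from them (at best 13.7% to 40.1% of values under 20 were multiples of 1 step, within 0.05), so read depth per library is unknown. The count test planned was therefore replaced by limma 3.58.1 in R 4.3.3 on log2(value + 1), with a variance trend, genotype as the only term, a minimum mean of 10 and Benjamini-Hochberg adjustment over 16781 genes; fold changes are on this scale, which understates the change of low genes. The fit was tested on simulated data. Symbols of 18205 of 18216 genes came from GENCODE M21. Levels between genes were divided by exonic length. Genes named are those with an unadjusted p under 0.05 or groups that do not overlap, the highest per kb in each family, the vascular and oligodendrocyte-lineage members, and Arid1b; others were named after their values were seen. Members and lists were chosen with earlier results of these data known. Alternatives changed the pseudocount, filter, scaling, variance prior, weights, covariates and mice used. Promoter windows are from RefSeq. The values of 1 cytoplasmic effector are not reported here.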

Additional observations from a re-analysis of the deposited data

Results flagged for a closer look

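In 11 of 120 groups of 5 mice, the highest or lowest mouse stood apart, its gap to the nearest mouse taking over 0.71 of the group's range; chance alone gives about 1 in 20, or 6 here. WT4 accounted for 5 of them. In Ephb6 (ratio 0.775) it had 4034 normalised counts beside 4872 to 5116 in the other WT mice. It was also low in Epha4 (0.718), at 8840 beside 10343 to 10933, and in Sema4f (0.762), at 1560 beside 1732 to 1785. It was high in Efnb3 (0.781), at 4515 beside 3393 to 3639, and in Epha1 (0.720), at 11.3 beside 3.98 to 6.03. HT2 was low in Ephb6 (0.844), at 3703 beside 4939 to 5168, and in Epha7 (0.744), at 1585 beside 2228 to 2450. HT5 was high in Sema3b (0.770), at 137 beside 41.7 to 63.7. WT3 was high in Plxnc1 (0.738), at 2581 beside 2027 to 2172, WT2 low in Epha2 (0.746), at 67.8 beside 84.3 to 89.9, and WT5 low in Sema4c (0.761), at 478 beside 553 to 576.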

How the results depend on the processing

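No member passed an adjusted p of 0.05 in any of 22 alternative settings (limma; smallest adjusted p from 0.32 to 0.97). The count at unadjusted p under 0.05, 13 as reported, was 7 without a variance trend (beside 8.53% of all genes). It was 4 with the astrocyte score (beside 4.76%), 12 with the striatal score (beside 9.93%) and 8 without HT2, HT5 and WT4 (beside 7.53%). Of these, 7, 3, 9 and 6 were among the 13, in this order. With 1 mouse left out the count ran from 7 (without WT5, beside 7.41%) to 12 (beside 8.59% to 10.9%). It was 8 without WT3 (beside 6.46%). Genes whose groups do not overlap numbered 0 after upper-quartile rescaling (beside 1.48% of all genes) and 6 without HT2, HT5 and WT4 (beside 7.92%). With 1 mouse left out they numbered 1 to 5 (beside 2.11% to 3.90%), the 5 without HT1 (beside 3.08%). Numbers in the labels paired the mice weakly if at all. The mean correlation was 0.0375 for same-numbered and -0.0091 for other-numbered mice, and 5 of 10 libraries were closest to their own number. With the replicate block the count was 12 (beside 8.99% of all genes). A test on whole counts was not run because the values are not whole. Under the astrocyte score the median log2 fold change was 0.036 for Eph receptors and 0.039 for Slits, and without HT2, HT5 and WT4 that of plexins was 0.037. With 1 mouse left out, family medians ran from 0.04 to 0.07 for semaphorins, -0.08 to 0.01 for plexins, -0.04 to 0.09 for neuropilins, -0.05 to 0.01 for ephrins, -0.08 to -0.01 for Eph receptors, -0.21 to -0.07 for Slits and 0.01 to 0.11 for Robos. At unadjusted p under 0.05, genes of the netrin and RGM list numbered 0 without a variance trend, with weights and with the astrocyte score. They numbered 4 without HT2, HT5 and WT4 and 0 to 3 with 1 mouse left out. Effectors numbered 1 in the first 3 of these settings and 1 to 5 with 1 mouse left out. In the order given, the share of all tested genes at that p was 8.53%, 8.74%, 4.76%, 7.53% and 6.46% to 10.9%.

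Of the 27 members whose log2 fold change was followed, 10 turned sign under settings other than leaving out 1 mouse. With the astrocyte score they were Efnb3 0.0071, Slit1 0.044, Efna1 -0.16, Ephb6 0.085, Sema6a -0.025, Plxna1 0.14, Plxnb1 -0.0036, Plxnb3 -0.025, Robo2 0.11 and Sema7a 0.065. Without HT2, HT5 and WT4 they were Efnb3 0.049, Efna1 -0.17, Robo2 0.013 and Sema7a 0.050. Quantile normalisation gave Efnb3 0.013 and Slit1 0.0024, sample weights gave Efnb3 0.0055, Efna1 -0.0035 and Ephb6 0.0036, and the striatal score gave Slit1 0.0090 and Sema6a -0.022. With 1 mouse left out, values ran from -0.17 to 0.054 for Ephb4, -0.092 to 0.059 for Ephb6, -0.11 to 0.025 for Sema7a, -0.047 to 0.025 for Slit1, -0.031 to 0.053 for Sema6a, -0.048 to 0.055 for Efnb3, -0.027 to 0.16 for Efna1 and -0.057 to 0.0017 for Nrp1. Causes were not tested.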
